A study of Drosophila melanogaster with 6 samples.

Results

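Strn-Mlck and Unc-89 are a pair of giant genes of the *Drosophila* sarcomere, and they were selected by their FlyBase symbols. Earlier results of these data were known when they were chosen. They were 2 of the 16428 genes with exon bins in the data, and each was represented by 42 of the 77774 exon bins. An exon bin is a piece of exon cut wherever an annotated transcript of the gene has an exon edge. Bins are numbered here from the 3′ end of each gene, so that E001 holds the end of the transcript. After the filter on low counts, 39 bins of Strn-Mlck and 42 bins of Unc-89 were tested. The bins of Strn-Mlck that were not tested were E011, which had 0 counts in all 6 libraries, and E012 and E020, which had at most 6 counts in any library.

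The mRNA came from indirect flight muscle (IFM), the fibrillar muscle that powers the wing beat, dissected at 72 h after puparium formation (APF). WT was Mef2-Gal4 crossed to a fly without a hairpin (Mef2-Gal4 / +), SF1-IR was Mef2-Gal4 / SF1-RNAi (GD5176) and Hrb87F-IR was Mef2-Gal4 / Hrb87F-RNAi (TRiP.JF01757), with 2 libraries of pooled flies in each group. All flies were kept at 27 °C and all groups carried the Mef2-Gal4 driver, which is active in all muscles and not in IFM alone. Each knockdown rested on a single hairpin line, and the WT flies carried no control hairpin. The 2 WT libraries served both comparisons with WT, which are thus not independent of each other. SF1 (Splicing factor 1) recognises the branch point of introns, and Hrb87F is a fly member of the hnRNP A/B family of RNA-binding proteins.

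Strn-Mlck (Stretchin-Mlck) codes for proteins built of many immunoglobulin-like domains, and its 3′ exons code for a myosin light chain kinase, an enzyme that phosphorylates the regulatory light chain of myosin. Alternative promoters, splice sites and ends give the gene long products with the kinase and a product without it. They also give short products, most of which hold little more than the kinase end. Unc-89 is the fly obscurin, a giant protein of the M-line in the middle of the sarcomere, where it helps to organise the thick filaments. It carries a RhoGEF region near its beginning, a row of immunoglobulin-like domains, and a pair of kinase domains near its end. The exons at the 3′ end of both genes therefore code for the kinase part.

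Strn-Mlck (FBgn0265045) lies on chromosome arm 2R at 15946933 to 15989498 and Unc-89 (FBgn0053519) on 2R at 23995543 to 24014254, both on the minus strand of BDGP6. The edges of their bins in the files equal the gene boundaries in the annotation BDGP6.54, which names Unc-89 Obsc and from which the transcripts below were taken. The transcript of Strn-Mlck that matters most here is RR, with 8 exons from 15959411 to 15968467, a length of 6435 nucleotides and 1918 codons. It begins inside the gene and ends before the exons of the kinase. The long transcripts RS, RT, RU and RV run through to the kinase end with 7905 to 8255 codons, and the short transcripts RB, RG, RJ, RM and RN hold only 3′ exons, with 576 to 929 codons. The 6 transcripts of Unc-89 have 3310 to 4218 codons and all run to the same 3′ end. On the opposite strand, Cyp4aa1 overlaps bin E001 of Strn-Mlck and lncRNA:CR45021 overlaps bin E041, while no gene overlaps Unc-89. Whether the counting used strand is not given in the sources used here, so reads of these neighbours may be included in E001 and E041.

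The total count over all exon bins was 63393347 to 72057010 per library. SF1 had 24.6 and 29.9 CPM (counts scaled to the size of the library) in WT and 25.6 and 19.3 in SF1-IR, so the groups overlapped and a lower SF1 mRNA was not detectable (log2 fold change −0.28, adjusted p = 0.473 by edgeR's quasi-likelihood test). The mRNA level thus gives no check of the label SF1-IR, and each direction given for SF1-IR rests on that label. Hrb87F had 29.8 and 30.5 CPM in WT and 14.8 and 18.1 in Hrb87F-IR (a log2 difference of −0.87 with an adjusted p of 0.0347 by edgeR). The summed level of 6 flight muscle markers was 168477 and 189966 CPM in WT, 123397 and 124224 in the SF1-IR and 121018 and 106981 in the Hrb87F-IR libraries. The summed level of the tubular muscle markers Act79B and TpnC41C was 1467 and 2061 CPM in WT, 2414 and 3125 in the SF1-IR and 2577 and 3003 in the Hrb87F-IR libraries. None of the markers passed an adjusted p under 0.01 in a comparison with WT. Between the knockdowns the fat body marker Lsp2 passed, with a log2 difference of SF1-IR from Hrb87F-IR of 0.98 (adjusted p = 0.00332 by edgeR). The part of tubular muscle in the results below was not tested. Markers of other tissues were low in each library, at 32.6 to 51.2 CPM for 3 tendon genes, 273 to 384 for 3 neuron genes, 12.2 to 15.3 for 1 tracheal gene, 52.8 to 68.4 for 2 haemocyte genes and 204 to 284 for 4 fat body genes, of which Yp1 was at 0 to 0.330. The chosen markers elav, trh, btl and srp were not found by symbol. The 3 neuron genes were higher in both knockdowns, by log2 fold changes of 0.24 to 0.43 in SF1-IR and 0.32 to 0.51 in Hrb87F-IR. No other tissue in this list had all its genes higher in both.

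Both genes were among those with the most counts in IFM, a measure that is not scaled to the length of a gene. Strn-Mlck ranked 6th and Unc-89 ranked 11th of the 11753 tested genes by mean CPM, and they took 1.63 to 2.52% and 1.07 to 1.99% of the exon-bin counts of a library. Per kilobase of exon bin, which is the scale for a comparison between genes, the result depends on which exons are counted. Over all bins the WT mean was 760 CPM for Strn-Mlck, whose bins sum to 32.768 kb, and 1235 CPM for Unc-89, whose bins sum to 13.261 kb. Over the 6.435 kb of Strn-Mlck exons that hold most of its counts (transcript RR) the WT mean was 3627 CPM.

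At the gene level, Strn-Mlck was measured at 23235 and 26588 CPM in WT, 14734 and 15097 in the SF1-IR and 25852 and 21889 in the Hrb87F-IR libraries. Both SF1-IR libraries lay below all others, whereas the Hrb87F-IR and WT libraries overlapped. The means were 24912 ± 2371 in WT, 14915 ± 257 in SF1-IR and 23871 ± 2802 in Hrb87F-IR (SD, n = 2). Strn-Mlck had a log2 fold change of −0.74 (SE 0.12) for SF1-IR and −0.06 (SE 0.12) for Hrb87F-IR, with adjusted p of 0.0151 and 0.849 by edgeR. Neither passed the threshold of 0.01, which 2.68% of all tested genes passed for SF1-IR and 0.0596% for Hrb87F-IR.

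Unc-89 stood in a like order, at 14438 and 18313 CPM in WT, 9647 and 9790 in the SF1-IR and 20436 and 15838 in the Hrb87F-IR libraries. Again both SF1-IR libraries were below the other 4, and the Hrb87F-IR libraries overlapped with WT. The means were 16376 ± 2740, 9719 ± 101 and 18137 ± 3251 CPM in the same order (SD, n = 2). The log2 fold change of Unc-89 was −0.75 (SE 0.16) for SF1-IR and 0.15 for Hrb87F-IR, with adjusted p of 0.0406 and 0.740 by edgeR, and neither passed.

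When the knockdowns were compared directly, the log2 difference of SF1-IR from Hrb87F-IR was −0.68 for Strn-Mlck (adjusted p = 0.0226 by edgeR) and −0.90 for Unc-89 (adjusted p = 0.0241), where 2.13% of all tested genes passed. With the Wald test of DESeq2, the SF1-IR contrasts passed, at adjusted p of 2.02e-07 for Strn-Mlck and 0.000207 for Unc-89 against WT, and of 8.15e-06 and 9.21e-06 against Hrb87F-IR. These 4 contrasts also passed with edgeR when only genes with at least 10 counts in every library were tested, or when the replicate number was added as a block with the numbers of WT swapped, an alternative chosen after seeing the data. The shares of all genes that passed under these alternatives are not given here, so these passes are a description only. With the deposited counts per gene in place of the summed exon bins, the log2 fold changes for SF1-IR against WT were −0.41 for Strn-Mlck and −0.58 for Unc-89 (adjusted p of 0.191 and 0.120 by edgeR). The WT columns of the gene and exon-bin counts did not match: on the log2 scale, the gene count over the bin sum was −0.23 and −0.26 in WT and −1.22 to −1.26 in the knockdowns for Strn-Mlck, and −0.24 and −0.44 against −1.46 to −1.48 for Unc-89. In tissue samples, fewer muscle cells and less mRNA per cell cannot be told apart.

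**Figure D1:**
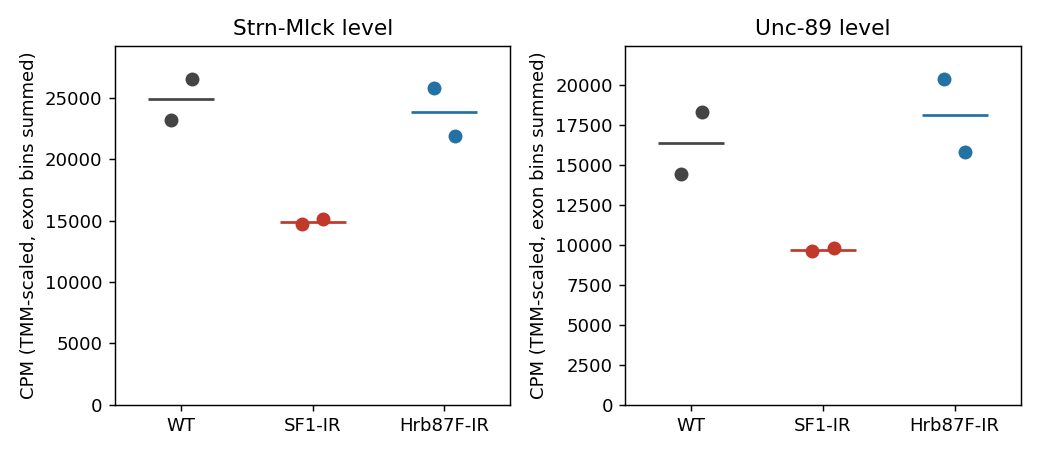
Level of Strn-Mlck and Unc-89 in each of the 6 libraries, in CPM of the exon-bin counts summed per gene, for WT, SF1-IR and Hrb87F-IR. Points are libraries and horizontal lines are group means; the SF1-IR libraries lie at 14734 and 15097 CPM for Strn-Mlck and at 9647 and 9790 CPM for Unc-89, below all WT and Hrb87F-IR libraries.

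Within Strn-Mlck, nearly all counts came from the exons of RR. The 9 bins of RR held 93.2 to 96.0% of the gene's counts in each library, and the gene level above is thus close to the level of these exons. In WT they had 3400 and 3853 CPM per kb, against 109 and 146 for the 22 bins on their 3′ side, 27.0 and 34.5 for the 9 bins on their 5′ side, and 38.1 and 54.7 for a pair of bins, E028 and E029, that lie between the exons of RR and are spliced out of it. The exons of RR that no other transcript uses (E023, E025 and E030 to E033) had 3267 and 3551 CPM per kb in WT, and those shared with the long transcripts (E024, E026 and E027) had 4804 and 5141. The RR exons were at 21881 and 24795 CPM in WT, 13730 and 14183 in the SF1-IR and 24766 and 21022 in the Hrb87F-IR libraries. As a feature of their own they had a log2 fold change of −0.74 in SF1-IR (adjusted p = 0.0146 by edgeR) and −0.03 in Hrb87F-IR. With both genes split into such regions, 2.71% of all features passed for SF1-IR, 0.0595% for Hrb87F-IR and 2.12% between the knockdowns.

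The most abundant bins were E030 and E033, both used by RR alone. E030 was measured at 5946 and 6513 CPM in WT, 3738 and 4337 in the SF1-IR and 6871 and 6000 in the Hrb87F-IR libraries. E033, the first exon of RR, was at 5186 and 5683, 3121 and 3243, and 4992 and 4095 CPM. In both bins the SF1-IR libraries were lower than the WT libraries, as for the gene. The longest bin of the gene, E034, is a single exon of 14931 bases found in the long transcripts only, and was at 438 and 536 CPM in WT, 309 and 288 in the SF1-IR and 459 and 351 in the Hrb87F-IR libraries. Despite its length it thus took a small part of the gene's counts.

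The first exons that mark the other transcripts had few counts. The first exons of the long transcripts RS and RT, E039 and E040, had 16.8 to 35.7 CPM per kb over the 6 libraries (510 to 818 counts). The first exons of RU and RV, E041 and E042, had only 5 to 26 counts. The bins found in short transcripts only (E009, E011 to E014 and E020) together had 40 to 114 counts, or 0.447 to 1.69 CPM per kb. All of them belong to first exons apart from E011, which is the last exon of RJ. The 3′ exons that short and long transcripts share stood well above all of these in WT, at 143 and 180 CPM per kb over E001 and E004 to E008.

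**Figure D2:**
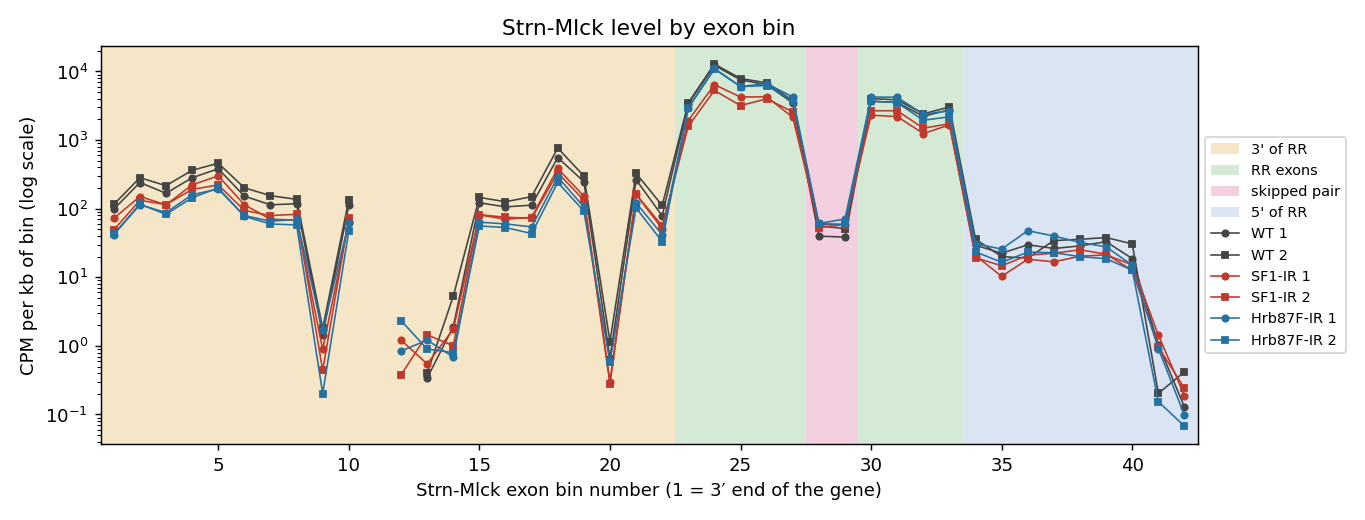
Level of each Strn-Mlck exon bin in CPM per kb (log axis) from the 3′ end (E001) to the 5′ end (E042), with 1 line per library coloured by group. The bins of RR stand far above the rest, and over most of the 3′ bins the Hrb87F-IR lines run lowest. Shading marks the bins 3′ of RR, the RR exons, the skipped pair E028 and E029, and the bins 5′ of RR, and lines break where a bin has 0 counts.

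Exon use, the change of a bin relative to the change of its whole gene, was tested next, and bins were called at an unadjusted p under 0.01. In SF1-IR, 2 of the 39 tested bins of Strn-Mlck were used more and 0 were used less, where 0.645% of all tested bins were used more and 0.327% less. These 2 bins were E028 and E029, the neighbouring exons of 744 and 711 bases at 2R 15961313 to 15962056 and 15962117 to 15962827 that the long transcripts RS to RV include and RR skips. E028 was measured at 29.6 and 41.7 CPM in WT, 43.8 and 39.4 in the SF1-IR and 45.3 and 45.1 in the Hrb87F-IR libraries. E029 was at 27.4 and 36.5 CPM in WT, 41.6 and 41.9 in the SF1-IR and 50.2 and 41.96 in the Hrb87F-IR libraries. Their own level in SF1-IR overlapped with WT for E028 and was above WT for E029, while for the gene both SF1-IR libraries lay below WT.

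The log2 change in use in SF1-IR was 0.95 for E028 (SE 0.19, unadjusted p = 3.12e-06 and adjusted p = 0.0014 by diffSpliceDGE of edgeR) and 1.11 for E029 (SE 0.19, unadjusted p = 8.39e-08 and adjusted p = 6.95e-05). As a share of the gene's counts, the pair was at 0.238 and 0.299% in WT, 0.584 and 0.517% in the SF1-IR and 0.382 and 0.401% in the Hrb87F-IR libraries. With the bins of each region merged, the pair was used more in SF1-IR by 1.02 (SE 0.18, adjusted p = 0.0064 by diffSpliceDGE). Its summed level alone was 55.4 and 79.5 CPM in WT and 86.1 and 78.1 in SF1-IR, which overlapped. The log2 fold change of that level was 0.28, and it was 0.044 without WT replicate 1 and 0.63 without WT replicate 2. No other bin of Strn-Mlck was called in SF1-IR, and the bin with the next lowest p was E024, an exon of RR and the long transcripts (log2 change in use −0.38, unadjusted p = 0.032 by diffSpliceDGE).

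The pair can also be compared with the bins on the 5′ side of RR, without the exons of RR. The pair lies between exons of RR, and whether its counts come from the long transcripts alone was not tested. Per kb, E028 and E029 had 1.41 and 1.58 times the level of the bins on the 5′ side of RR in WT, 3.02 and 3.01 times in the SF1-IR and 2.23 and 2.71 times in the Hrb87F-IR libraries. Both knockdowns were above WT in this ratio, and SF1-IR was above Hrb87F-IR. When the RR bins were left out of the gene before the test, an alternative chosen after seeing the data, the log2 change in use in SF1-IR was 0.92 for E028 and 1.08 for E029 (adjusted p of 0.00605 and 0.000375 by diffSpliceDGE). In the same fit Hrb87F-IR gave 1.07 for E028 and 1.26 for E029 (adjusted p of 0.00255 and 0.000218 by diffSpliceDGE).

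In Hrb87F-IR, the bins of Strn-Mlck on the 3′ side of RR were used less. Of the 39 tested bins, 16 were used less (against 0.42% of all tested bins) and 1, E029, was used more, against 0.236% of all tested bins. The bins used less were E001 to E008, E010, E015 to E019, E021 and E022, which all lie on the 3′ side of RR. They are not the kinase end alone, since the short transcripts RB, RG, RM and RN lack E015 to E019, E021 and E022. Each of them had an adjusted p under 0.05 by diffSpliceDGE, which 0.091% of all tested bins reached, and in each both Hrb87F-IR libraries were below both WT libraries. The log2 changes in use ran from −0.90 for E008 to −1.37 for E019. The other 3 tested bins in this region, E009, E013 and E014, are first exons of short transcripts with few counts and were not called. Bins of a gene share their libraries, and a read that spans several bins may be counted in each, so these bins are not independent of each other.

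E022, the 1324-base exon next to RR, was measured at 104 and 147 CPM in WT, 67.6 and 74.3 in the SF1-IR and 55.3 and 43.8 in the Hrb87F-IR libraries. E017 was at 98.1 and 131 CPM in WT, 65.2 and 63.3 in the SF1-IR and 47.3 and 37.8 in the Hrb87F-IR libraries. E001, the last exon, was at 66.2 and 77.6 CPM in WT, 48.7 and 33.03 in the SF1-IR and 28.04 and 28.8 in the Hrb87F-IR libraries. In these 3 bins the libraries stood in 1 order, with WT highest and Hrb87F-IR lowest. The log2 change in use in Hrb87F-IR was −1.24 for E022, −1.33 for E017 (SE 0.19) and −1.24 for E001, with adjusted p of 7.04e-06, 1.68e-06 and 1.63e-05 by diffSpliceDGE.

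The lower level of these bins ran along the 3′ region. The exons shared by the most transcripts, E001 and E004 to E008, had 143 and 180 CPM per kb in WT, 102 and 88.9 in the SF1-IR and 74.9 and 71.0 in the Hrb87F-IR libraries. E002 and E003 had 184 and 231 in WT, 122 and 119 in the SF1-IR and 93.5 and 90.3 in the Hrb87F-IR libraries. E015 to E019, E021 and E022, nearer to RR, had 118 and 154 in WT, 77.2 and 77.6 in the SF1-IR and 59.6 and 49.5 in the Hrb87F-IR libraries. In each of the 3 stretches the groups did not overlap.

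Summed over the 22 bins on the 3′ side of RR, the level was 836 and 1117 CPM in WT, 582 and 530 in the SF1-IR and 458 and 396 in the Hrb87F-IR libraries. Tested as a feature among all genes, the region had a log2 fold change of −1.19 in Hrb87F-IR (adjusted p = 0.0266 by edgeR, 5.38e-11 by DESeq2) and −0.81 in SF1-IR (adjusted p = 0.0299 by edgeR, 2.86e-05 by DESeq2). Neither level passed 0.01 by edgeR in the design given. With at least 10 counts in every library both passed by edgeR (adjusted p of 0.00047 in Hrb87F-IR and 0.0019 in SF1-IR), and with no filter the level in Hrb87F-IR passed (0.00619). The difference between the knockdowns in this level was 0.38 (adjusted p = 0.254 by edgeR). Relative to the gene, the region was used less in Hrb87F-IR by a log2 change of −1.13 (SE 0.16, adjusted p = 0.00503 by diffSpliceDGE on merged bins), and in SF1-IR the value was −0.07. The share of the gene's counts in this region was 3.60 and 4.20% in WT, 3.95 and 3.51% in the SF1-IR and 1.77 and 1.81% in the Hrb87F-IR libraries. Per kb, the exons of RR had 31.2 and 26.5 times the level of the 3′ region in WT, 28.1 and 31.9 times in the SF1-IR and 64.5 and 63.3 times in the Hrb87F-IR libraries.

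**Figure D3:**
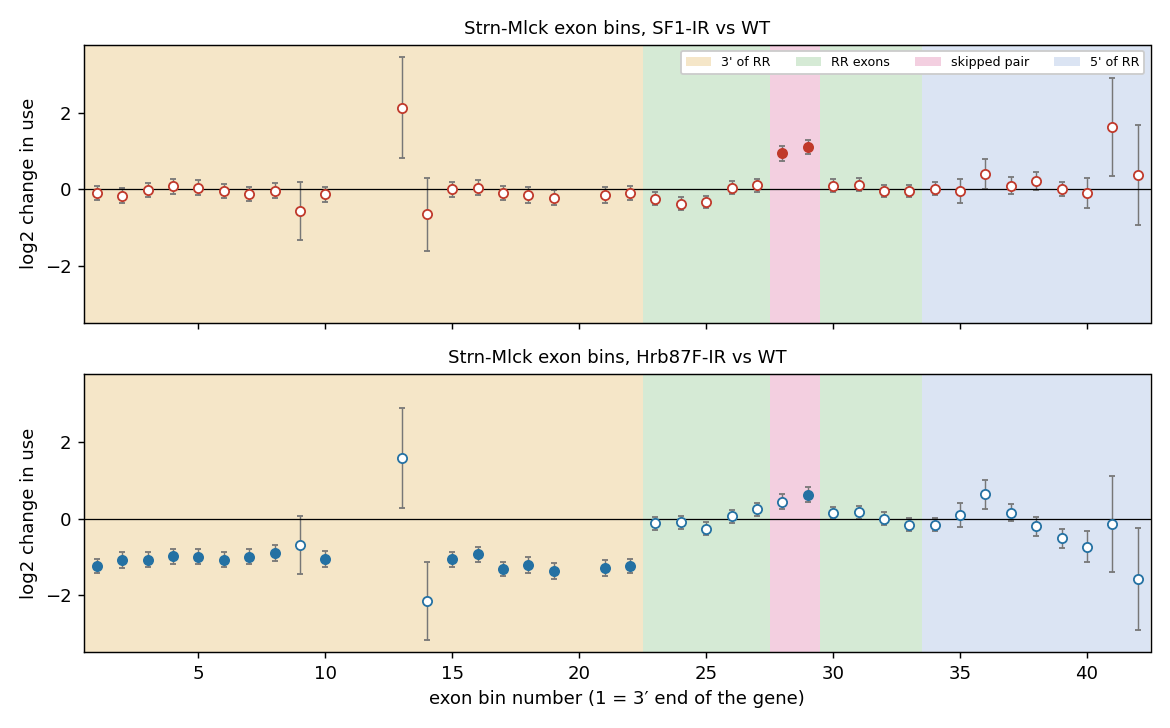
Log2 change in use of each tested Strn-Mlck bin against WT, from the 3′ end (E001) to the 5′ end, for SF1-IR and Hrb87F-IR. Points are bins, bars are SE and filled points have an unadjusted p under 0.01; in Hrb87F-IR 16 of the bins on the 3′ side of RR lie between −0.90 and −1.37, and in SF1-IR the filled points are E028 and E029.

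The difference between the knockdowns was tested in the direct contrast. The 16 bins were used more in SF1-IR than in Hrb87F-IR, by a log2 change of 0.86 to 1.22, and no other bin of Strn-Mlck was called, where 0.793% of all tested bins were used more and 0.305% less in this contrast. In SF1-IR against WT the same 16 bins had changes of −0.22 to 0.08, and 0 of them reached an unadjusted p under 0.05 by diffSpliceDGE. E028 and E029 did not pass between the knockdowns (unadjusted p of 0.0125 and 0.0172 by diffSpliceDGE). The exons of RR had changes in use of −0.38 to 0.12 in SF1-IR and −0.26 to 0.24 in Hrb87F-IR, and 0 of these 9 bins were called in either comparison. The bins on the 5′ side of RR were not called in any contrast of this fit.

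Because RR takes most of the counts, the use of the other bins was measured mainly against RR. Without its bins, 6 of the 16 bins were still called in Hrb87F-IR (E001, E017, E018, E019, E021 and E022), and none of them had an adjusted p under 0.316 by diffSpliceDGE. In that fit all 16 had changes between −0.27 and −0.74, and the bins E036 and E037 on the 5′ side of RR were used more by 1.27 and 0.78 (unadjusted p of 0.00225 and 0.00127, adjusted p of 0.722 and 0.541 by diffSpliceDGE). Between the knockdowns, 1 of the 16 bins, E017, was still called there, the 16 changes were 0.21 to 0.56, and E034 and E037 were used less in SF1-IR than in Hrb87F-IR (−0.48 and −0.71, unadjusted p of 0.00922 and 0.00324). Without RR, the 3′ bins held 55584 and 60695 counts in WT, against 30896 and 32278 for the bins 5′ of RR. Use in that fit was thus measured in large part against the 3′ bins themselves. As a feature of their own, the bins 5′ of RR had a log2 fold change of −0.22 in Hrb87F-IR (adjusted p = 0.657 by edgeR). With limma's diffSplice, the changes of the 16 bins were −0.56 to −1.03 and 15 of them were called. The share of all tested bins called without RR or with limma is not given here. The bin used more in Hrb87F-IR with all bins, E029, had a log2 change of 0.63 (unadjusted p = 0.00188, adjusted p = 0.606 by diffSpliceDGE), was not called without either Hrb87F-IR library or without WT replicate 1 (0.50 to 0.65, unadjusted p of 0.0145 to 0.0372), and its neighbour E028 had 0.44 (unadjusted p = 0.0278).

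By the number of bins used less in Hrb87F-IR, Strn-Mlck ranked first of the 173 genes with such a bin. The next gene was bt, which codes for the giant kinase projectin, with 8 of its 51 bins, and Mhc, the myosin heavy chain, had 6. In the direct contrast Strn-Mlck also ranked first, and the next gene had 13 bins. These ranks are a description, since a gene with more tested bins can have more bins called.

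**Figure D4:**
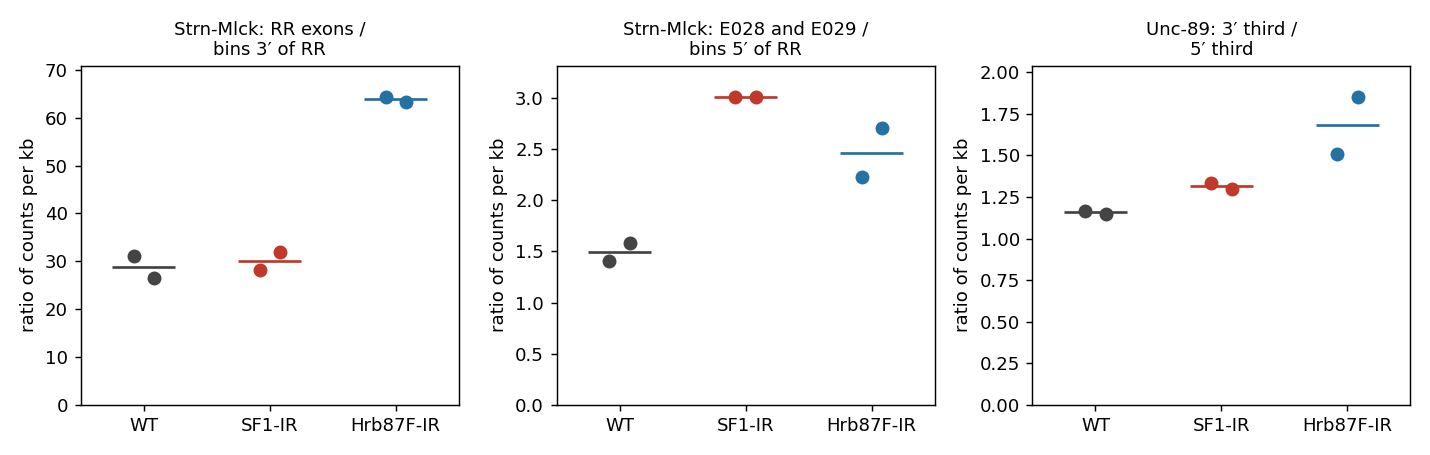
Ratios of levels per kb in each library: exons of RR over the 3′ region of Strn-Mlck, the pair E028 and E029 over the bins on the 5′ side of RR, and the 14 bins at the 3′ end of Unc-89 over the 14 at its 5′ end. Points are libraries and horizontal lines are group means; the first ratio is 64.5 and 63.3 in Hrb87F-IR against 26.5 to 31.9 elsewhere, and the second is 3.02 and 3.01 in SF1-IR against 1.41 and 1.58 in WT.

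Unc-89 showed no such change of single exons. In SF1-IR 0 of its 42 bins were called, against 0.972% of all tested bins in either direction, and 0 had an unadjusted p under 0.05 by diffSpliceDGE. The log2 changes in use ran from −0.41 to 0.47. In the direct contrast 0 of the 42 bins were called, against 1.1% of all tested bins. In Hrb87F-IR 1 bin was called, or 2.38% of the 42 against 0.656% of all tested bins.

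That bin was E042, the first exon of 4 of the 6 transcripts at the 5′ end of the gene. It was at 337 and 425 CPM in WT, 206 and 186 in the SF1-IR and 320 and 213 in the Hrb87F-IR libraries, so the Hrb87F-IR libraries lay below WT and apart from each other. Its log2 change in use was −0.62 (SE 0.21, unadjusted p = 0.00344, adjusted p = 0.898 by diffSpliceDGE), and it was not called in 8 of 14 alternatives, among them each single library left out apart from Hrb87F-IR replicate 1 (−0.51 to −0.65). At an unadjusted p under 0.05, 5 bins of Unc-89 were used less and 2 were used more in Hrb87F-IR. The latter were E001 (0.48) and E002 (0.43) at the 3′ end. The share of all tested bins at this threshold is not given here, so these counts are a description only.

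The changes of the Unc-89 bins followed their position. In Hrb87F-IR the log2 change in use was between 0.17 and 0.48 in each of E001 to E008, and between −0.62 and −0.14 in each of E026 to E042 apart from E036, a first exon with few counts. Across the 42 bins, which share libraries and reads, Spearman's rho of the change with the bin number was −0.80 for Hrb87F-IR and −0.71 for SF1-IR. The most abundant and longest bin, E003, was at 1599 and 1872 CPM in WT, 1103 and 1156 in the SF1-IR and 2408 and 2246 in the Hrb87F-IR libraries, where both libraries were above WT. E034, a long exon near the 5′ end, was at 1011 and 1229, 594 and 663, and 1127 and 798 CPM. Here the Hrb87F-IR libraries lay on both sides of the WT mean.

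Long exons in between behaved like the gene as a whole. E013 was at 893 and 1107 CPM in WT, 594 and 604 in the SF1-IR and 1178 and 930 in the Hrb87F-IR libraries. E025 was at 924 and 1114, 575 and 682, and 1228 and 918 CPM. In both the SF1-IR libraries were lowest and Hrb87F-IR overlapped with WT.

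Per kb, the 14 bins at the 3′ end had 1.17 and 1.15 times the level of the 14 bins at the 5′ end in WT, 1.34 and 1.30 times in the SF1-IR and 1.51 and 1.86 times in the Hrb87F-IR libraries. As features among all genes, the 3′ group had a log2 fold change of −0.69 in SF1-IR (adjusted p = 0.0350 by edgeR) and 0.34 in Hrb87F-IR (adjusted p = 0.331), and the 5′ group had −0.87 (adjusted p = 0.0569) and −0.17. Between the knockdowns the 3′ group differed by −1.03 (adjusted p = 0.0105 by edgeR), and none of these passed 0.01 in the design given. The difference of the 3′ group between the knockdowns passed in 6 of 14 alternatives, among them DESeq2 (adjusted p = 1.58e-09) and edgeR without WT replicate 1 (0.00508). Its difference of SF1-IR from WT passed in 3 of 14 alternatives. For Hrb87F-IR the value of 0.34 was 0.18 without WT replicate 1 and 0.53 without WT replicate 2.

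The same 3′ to 5′ ratio was taken over all 1489 genes with at least 10 tested bins. Its log2 difference between Hrb87F-IR and WT had a median of 0.130, and 66.4% of these genes were above 0. Unc-89 had 0.530, at the 87.0th percentile. Among the 82 genes with at least 500 CPM the median was 0.164, 72.0% were above 0 and Unc-89 was at the 95.1th percentile. For SF1-IR the median over all was −0.0055, and Unc-89 had 0.185, at the 73.1th percentile. The gradient of Unc-89 in Hrb87F-IR thus came with a shift of the same sign in most genes, and the part of RNA quality in it was not tested. For Strn-Mlck the difference in Hrb87F-IR was −1.08, but there the ratio compares exons of different transcripts. Its use did not fall steadily towards the 3′ end: E019, nearer to RR, had −1.37, while E008 had −0.90 and E001 had −1.24.

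**Figure D5:**
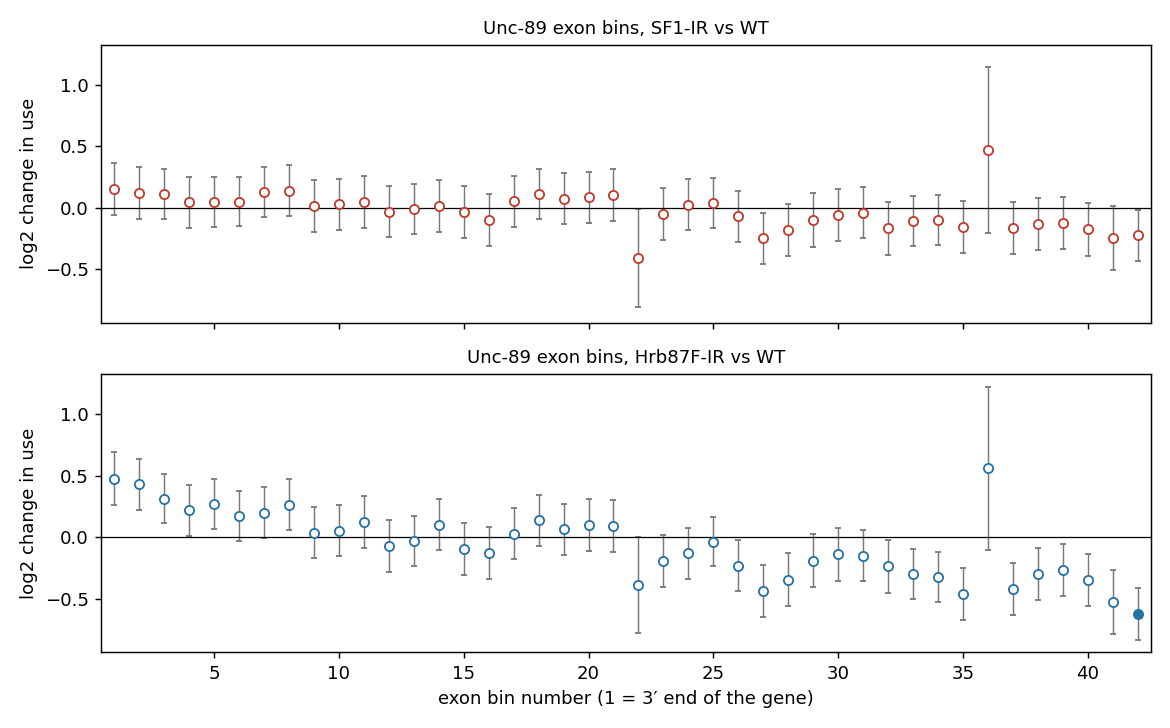
Log2 change in use of each Unc-89 bin against WT, from the 3′ end (E001) to the 5′ end (E042), for SF1-IR and Hrb87F-IR. Points are bins, bars are SE and filled points have an unadjusted p under 0.01; in Hrb87F-IR E001 to E008 lie between 0.17 and 0.48, and the 1 filled point is E042 at −0.62.

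Exons that few transcripts of Unc-89 include were low in every library. E022 had 20.1 to 75.1 CPM per kb and E036, the first exon of the transcripts RF and RG, had 8.01 to 28.2, where the gene as a whole had 727 to 1541. Neither bin was called in a comparison with WT.

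Genes of the same structures were described by their counts and medians. Of the 5 giant genes with immunoglobulin-like domains, bt, sls, zormin, Unc-89 and Strn-Mlck, 0 were called in either comparison with WT, against 2.68% of all tested genes for SF1-IR and 0.0596% for Hrb87F-IR, and their log2 fold changes had −0.30 as their median in SF1-IR and 0.15 in Hrb87F-IR, where all tested genes had −0.015 and −0.030. sls, which codes for the titin-related proteins of the Z-disc, had 0.67 in Hrb87F-IR (adjusted p = 0.116 by edgeR). The values for bt were −0.30 in SF1-IR and −0.31 in Hrb87F-IR. Those for zormin, another Z-disc and M-line protein, were 0.06 and 0.17.

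Of 8 genes of the thick filament and its chaperones, 1 fell and 0 rose in SF1-IR, where 2.68% of all tested genes were called in either direction. In Hrb87F-IR 0 were called, against 0.0596% of all tested genes. Their median log2 fold changes were −0.45 in SF1-IR and −0.19 in Hrb87F-IR, where all tested genes had −0.015 and −0.030. The gene that fell was Mlc1, the essential light chain of muscle myosin, with a log2 fold change of −0.64 (adjusted p = 0.00735 by edgeR, against 1.41% of all tested genes called lower). unc-45, which codes for a myosin chaperone, was just outside the threshold with 0.92 (adjusted p = 0.0102 by edgeR).

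Of 9 measured genes of myosin light chain phosphorylation (sqh, Mlc2, zip, Mbs, flw, Rok, Drak, Rho1 and CaMKII), 0 were called in either comparison (against the same shares of all tested genes, 2.68% and 0.0596%), with medians of 0.05 in SF1-IR and 0.11 in Hrb87F-IR. CaMKII, a calcium-dependent kinase, had −0.87 in SF1-IR (adjusted p = 0.0166 by edgeR). ball, which codes for a kinase that binds the Unc-89 kinase region, was at 0.58 to 1.73 CPM. Cam, the calmodulin that activates light chain kinases, and mask were not analysed here.

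The genes with the pattern most like Strn-Mlck over the 6 libraries were SmydA-2, Chchd3 and blw, with a root mean square difference in centred log2 CPM of 0.034, 0.039 and 0.043 among 2149 genes. Those most like Unc-89 were Usp47, Lmpt and cue, at 0.077, 0.085 and 0.093. Strn-Mlck and Unc-89 differed from each other by 0.115, which placed Strn-Mlck 12th in the order for Unc-89 and Unc-89 97th in the order for Strn-Mlck. The measure follows the lower SF1-IR levels given above.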

How the data were processed

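Poly A-selected mRNA of dissected IFM was sequenced in 6 libraries, 2 per genotype, grouped by the genotype in the labels. The authors deposited unnormalized counts per gene and per exon bin, made with STAR 2.7.3a, SAMtools 1.1 and featureCounts (Subread 2.0.0) on BDGP6 per the submitters' processing notes, which also name DESeq2 1.32.0. Their tables of comparisons hold fold changes and p-values, which were not used, and gave only the positions of the bins, and 8 count columns matched to no sample here were left out.

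Exon-bin counts were summed per gene, since the members were defined by the exon-bin counts, and the bins hold 16428 genes. The deposited gene counts of WT did not match the bins, and which of these counts is at fault was not tested. Genes were tested with edgeR 4.0.16 (TMM, filterByExpr, robust glmQLFit, glmQLFTest) over all 6 libraries, with Benjamini-Hochberg adjustment over 11753 genes and calls at an adjusted p under 0.01. TMM factors were 0.844 to 1.14. Exon use was tested with diffSpliceDGE over 53818 bins of 8815 genes and called at an unadjusted p under 0.01, which the text gives beside the adjusted value. CPM values are exon-bin counts scaled to the library total times its TMM factor. R 4.3.3, limma 3.58.1 and DESeq2 1.42.0 were used for alternatives, and the tests were checked on simulated counts.

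The members, lists and markers were chosen with earlier results of these data known. Bins given in full were picked from those called against WT and, for each gene, the 3 most abundant and the 3 longest. Of the 16 bins used less in Hrb87F-IR, only E001, E017 and E022 are given with their levels. E031, among the 3 most abundant bins of Strn-Mlck, is not given. Other bins, and the groups of bins, were chosen after their values were seen. The genes most alike were the 3 with the smallest root mean square difference among genes with a mean of at least 5 log2 CPM. Regions of Strn-Mlck by transcript, the groups of 14 bins of Unc-89, the removal of the RR bins and a crossed replicate block were added after seeing the data. The other alternatives were RLE or upper quartile scaling, other filters, only the groups compared, DESeq2, limma's diffSplice, the counts per gene, another threshold, a replicate block, and leaving out each library. With 2 libraries a group, and no statement that they came from separate cultures, p-values measure only the spread between these libraries.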

Additional observations from a re-analysis of the deposited data

How the results depend on the processing

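The level of neither gene passed an adjusted p under 0.01 in SF1-IR with edgeR in the design given, and some alternatives made calls. Shares of all genes called under the alternatives are not given, here or above, so such calls are a description only. With at least 10 counts in every library, the log2 fold change passed at −0.72 for Strn-Mlck and −0.73 for Unc-89 against WT, and at −0.64 and −0.86 against Hrb87F-IR. With DESeq2 these values were −0.74, −0.75, −0.65 and −0.87. With no filter, −0.74 for Strn-Mlck against WT and −0.90 for Unc-89 against Hrb87F-IR passed, and with upper quartile scaling −0.73 for Strn-Mlck against WT passed. For Hrb87F-IR against WT, the level of Strn-Mlck turned from −0.06 to 0.23 with the deposited counts per gene. Neither gene level was called in Hrb87F-IR under any of these alternatives. The level of the bins 3′ of RR, however, passed in Hrb87F-IR in 4 of 14 alternatives (−1.21 with at least 10 counts, −1.22 with DESeq2, −1.19 with no filter and −1.19 with the WT numbers crossed) and in SF1-IR in 3 (−0.79, −0.81 and −0.80, without the setting of no filter).

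Leaving out 1 library at a time gave −0.84 to −0.58 for Strn-Mlck and −0.92 to −0.51 for Unc-89 in SF1-IR against WT, −0.79 to −0.51 and −1.07 to −0.66 between the knockdowns, and −0.20 to 0.061 and −0.061 to 0.35 in Hrb87F-IR. For Hrb87F-IR it also gave −0.16 to 0.088 for the exons of RR, and −0.49 to 0.075 for the 14 bins at the 5′ end and −0.19 to 0.29 for the 14 in the middle of Unc-89, and 0.18 to 0.53 for the 14 at its 3′ end. The level of the pair E028 and E029 was 0.044 to 0.63 in SF1-IR and 0.23 to 0.77 in Hrb87F-IR. A group left with 1 library is assumed to vary like the others. The number of Strn-Mlck bins called was 2 to 4 in SF1-IR against WT (4 without SF1-IR replicate 1), 16 to 17 in the Hrb87F-IR comparison and 16 to 17 between the knockdowns, and that of Unc-89 bins in Hrb87F-IR was 0 to 1, with 1 only when Hrb87F-IR replicate 1 was left out.

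The replicate numbers did not pair the libraries across the 3 groups: deviations of libraries with the same number correlated at −0.735 for WT with SF1-IR, −0.558 for WT with Hrb87F-IR and 0.514 for SF1-IR with Hrb87F-IR. With the replicate block, the levels were −0.74 (adjusted p = 0.0674 by edgeR) and −0.75 (0.122) in SF1-IR against WT, −0.06 and 0.15 in the Hrb87F-IR comparison, and −0.68 and −0.90 between the knockdowns, for Strn-Mlck and Unc-89. The block left 2, 17 and 16 Strn-Mlck bins called in the same contrasts and 0 Unc-89 bins in Hrb87F-IR. With the WT replicate numbers crossed, SF1-IR passed at −0.73 and −0.74 against WT and at −0.67 and −0.88 against Hrb87F-IR.

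Without the RR bins, 10 bins of Strn-Mlck were called in Hrb87F-IR and 3 between the knockdowns, of which 6 and 1 were among the 16 bins named for Hrb87F-IR. With limma's diffSplice 4 were called in SF1-IR. Shares of all bins called without RR or with limma are not given, so these counts are a description only. The 1 Unc-89 bin in Hrb87F-IR became 0 at an adjusted p under 0.05 and with only the groups compared. No bin named for its call turned its direction under any alternative. The causes of these differences were not tested. With 2 libraries a group the spread rests on few values, and the first exons of the short transcripts and of RU and RV held too few counts to resolve a change.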
